A study of Mus musculus with 24 samples.

Results

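Ptf1a, Rbpjl, Bhlha15 and Nr5a2 encode 4 transcription factors that hold pancreatic acinar cells in their secretory state, and their transcripts were followed in islet RNA of the non-obese diabetic (NOD) mouse, which develops autoimmune diabetes. All noncontrol probes carrying a member's name or RefSeq accession were taken, which gave 5 probes for the 4 genes, out of 41174 noncontrol probes and 18085 genes tested. Each array set islets of one female NOD/LtJ mouse, labelled with Cy5, against a pool of islets from 6 female NOD.B10Sn-H2b/J (NOD.B10) mice of the same age, labelled with Cy3. NOD.B10 mice share the NOD background but carry another major histocompatibility haplotype and served as the healthy controls. There were 4 ages (10 days, 4 weeks, 12 weeks and 20 weeks) with 6 NOD mice each, on 24 arrays with one dye orientation. The labels and the close pool values were read as 1 pool per age, so the spread over mice leaves out that of the controls, and comparing ages also compares their pools. Values are log2(NOD/pool), where 1 is a doubling over the pool, and errors of an age are the SD of its 6 mice (mean ± SD).

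Acinar cells surround the islets and make the digestive enzymes. Islets freed by collagenase can carry some acinar tissue with them; the source of the acinar transcripts in this RNA was not tested. Ptf1a, a basic helix-loop-helix protein, joins an E protein and either Rbpj or its pancreas-restricted paralog Rbpjl in the PTF1 complex, which drives the enzyme genes. Bhlha15, also called Mist1, is a basic helix-loop-helix factor that organises the granules and the secretory apparatus. Nr5a2, also called LRH-1, is a nuclear receptor that works with the PTF1 complex at acinar promoters.

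The array held a single probe for Ptf1a (chr2:19368720-19368779), Rbpjl (chr2:164240195-164240254) and Nr5a2 (chr1:138740903-138740962, minus strand), and a pair of probes for Bhlha15, all on mm9 per the file headers. No annotation of that build was used here, so the exons behind the probes are not given. The Bhlha15 probes are shown because they disagree in signal: the bright one, which stands for the gene below, lies at chr5:144955175-144955234, and the dim one at chr5:144952447-144952506, 2728 bases away. The first 30 of 60 bases of each, 5′ to 3′ as the files give them, are:
Bhlha15 bright probe: tccctgagtactagtaaaattgccatctgt
Bhlha15 dim probe: ggccatgcttggtgtcactgaggaccagcc

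The promoters are shown because the members moved together in many mice and because the PTF1 complex reads a joined pair of motifs, an E-box (CANNTG) and the RBPJ core TGGGAA. The 250 bases before each RefSeq start (GRCm38.p6, gene strand) were searched on both strands for these motifs, which are in capitals. The windows are chr2:19445413-19445662 (plus) for Ptf1a, chr2:164402944-164403193 (plus) for Rbpjl, chr5:144190036-144190285 (plus) for Bhlha15, and chr1:136960449-136960698 and chr1:136953631-136953880 (minus) for both starts listed for Nr5a2.
Ptf1a: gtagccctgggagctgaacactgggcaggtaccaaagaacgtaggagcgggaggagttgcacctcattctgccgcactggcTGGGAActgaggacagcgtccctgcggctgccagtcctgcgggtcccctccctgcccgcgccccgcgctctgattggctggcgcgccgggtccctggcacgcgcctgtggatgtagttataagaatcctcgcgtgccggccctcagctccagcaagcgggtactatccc
Rbpjl: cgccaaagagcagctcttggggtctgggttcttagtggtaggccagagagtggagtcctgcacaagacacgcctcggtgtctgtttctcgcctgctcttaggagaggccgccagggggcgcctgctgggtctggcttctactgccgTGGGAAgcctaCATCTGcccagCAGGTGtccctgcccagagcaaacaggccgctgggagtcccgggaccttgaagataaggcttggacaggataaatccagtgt
Bhlha15: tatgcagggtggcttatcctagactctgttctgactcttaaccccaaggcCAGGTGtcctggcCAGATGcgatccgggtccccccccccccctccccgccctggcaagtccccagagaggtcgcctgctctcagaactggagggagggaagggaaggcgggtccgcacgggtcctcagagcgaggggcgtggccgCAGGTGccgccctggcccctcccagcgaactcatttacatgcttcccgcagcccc
Nr5a2, first start: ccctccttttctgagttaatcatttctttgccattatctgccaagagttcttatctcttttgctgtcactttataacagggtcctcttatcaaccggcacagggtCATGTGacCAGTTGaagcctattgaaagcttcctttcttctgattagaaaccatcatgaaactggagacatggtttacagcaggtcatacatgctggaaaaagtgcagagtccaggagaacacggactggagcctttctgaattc
Nr5a2, second start: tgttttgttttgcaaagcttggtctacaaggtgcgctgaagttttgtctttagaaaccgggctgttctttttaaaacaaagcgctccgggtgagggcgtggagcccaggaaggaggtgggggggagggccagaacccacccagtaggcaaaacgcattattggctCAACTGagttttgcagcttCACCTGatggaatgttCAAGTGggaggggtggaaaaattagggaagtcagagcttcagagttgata

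The Rbpjl window held both motifs, with TGGGAA at -104 and E-boxes at -93 and -82, counted from the start. Both motifs together occur in 14.8% of 32536 promoter windows of this length, E-boxes in 66.2% and TGGGAA in 21.6%. The Ptf1a window held TGGGAA at -169 and no E-box. The Bhlha15 window held 3 E-boxes and the Nr5a2 windows 2 and 3, without TGGGAA. The E-box variant CACCTG, matched on either strand and a subset of CANNTG, occurred once for Rbpjl, at 2 places for Bhlha15 and once at the second Nr5a2 start, against 17.3% of windows. The nuclear receptor core CAAGGNC was matched once for Rbpjl and once for Bhlha15, against 15.1% of windows, and the E-box variant CATATG in no member window, against 3.42%. These matches describe letters only.

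The 4 representing probes were well above background in both channels on all 24 arrays, and none was saturated. Insulin (Ins1, Ins2), glucagon (Gcg), somatostatin (Sst) and pancreatic polypeptide (Ppy) were also above background in both channels on every array, as were all 22 digestive enzymes tested. The arrays carry no read depth, and the number of arrays limits the precision. The share of probes well above background ran from 42.3% to 64.6% over the NOD channels and from 39.4% to 60.4% over the pool channels. Of 216 array pairs between ages, 11 correlated below -0.3 over all tested genes, the lowest at -0.54; the labels state the dyes, so the direction of the ratios was kept. Replicates 5 and 6 of 20 weeks had the fewest NOD probes above background, at 42.3% and 47.7%.

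At 10 days 3 of the 4 factors were lower in NOD islets than in the pool, by 2.35-fold to 3.37-fold, and Ptf1a did not pass the test. A gene was called when its limma adjusted p (Benjamini-Hochberg, over 18085 genes) was under 0.05 and its change at least 2-fold. By that rule 2.36% of all genes were lower at this age and 3.98% changed in either direction.

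Rbpjl, the pancreas-restricted subunit of the PTF1 complex, ranged from -3.30 through a median of -1.49 to -1.23. Its mean was -1.75 ± 0.77 (n = 6), 3.37-fold lower than the pool (limma adjusted p = 0.00115). All 6 mice lay below the pool, and replicate 1 stood apart at -3.30, while the other 5 lay between -1.63 and -1.23. Without replicate 1 the mean was -1.44, still called.

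Nr5a2 ranged from -2.16 through -1.17 to -0.67, with a mean of -1.26 ± 0.53 (n = 6, limma adjusted p = 0.000152). Bhlha15 ranged from -1.97 through -1.42 to -0.35, with a mean of -1.23 ± 0.66 (n = 6, limma adjusted p = 0.00468). For both genes all 6 mice lay below the pool and replicate 1 was again the lowest. Ptf1a ranged from -1.91 through -0.53 to 0.37, with a mean of -0.55 ± 0.83 (n = 6, limma adjusted p = 0.205). Replicates 3 and 4 were above the pool for Ptf1a and the other 4 mice below it.

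The calls at 10 days depended on how the arrays were scaled. With each array centred on its median in place of loess, the median of all genes moved to 0.38 in the 10 day mice, -0.15 in those of 4 weeks, 0.50 in those of 12 weeks and -0.21 in those of 20 weeks. The share of higher genes among those called went from 40.6% to 98.1% at 10 days and from 68.4% to 17.3% at 4 weeks. Rbpjl then averaged -1.02 and stayed called, Nr5a2 (-0.53) and Bhlha15 (-0.47) were no longer called, and Ptf1a turned to 0.20. Relative to the median of all genes under that scaling, the values were -1.40 for Rbpjl, -0.90 for Nr5a2, -0.85 for Bhlha15 and -0.18 for Ptf1a.

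**Figure D1:**
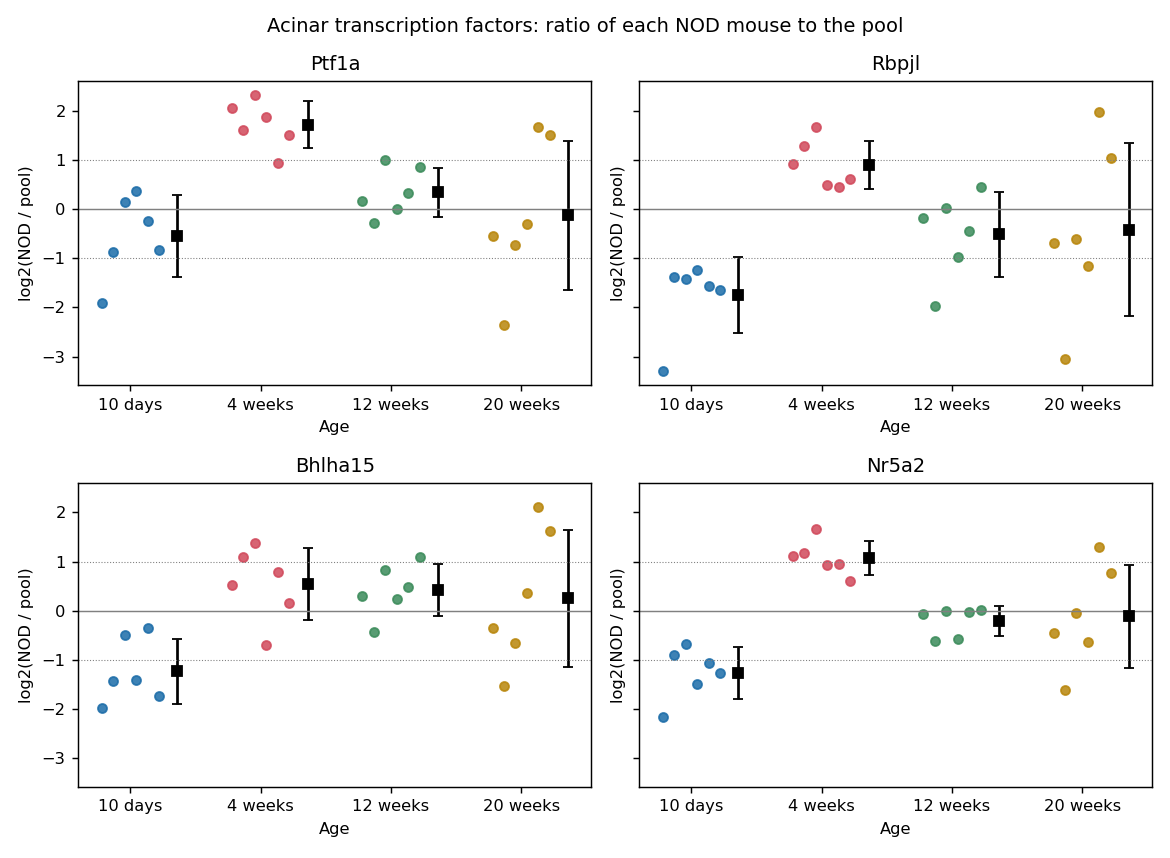
Log2(NOD/pool) of each member in each of the 24 NOD mice, by age; circles are mice, in replicate order only to keep them apart, black squares and bars are the mean and SD of 6 mice, and dotted lines mark 2-fold. Rbpjl, Bhlha15 and Nr5a2 lie below 0 in all 6 mice at 10 days, Ptf1a, Rbpjl and Nr5a2 lie above 0 in all 6 at 4 weeks, and the 20 week mice spread from -3.05 to 2.10.

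At 4 weeks the direction was the opposite, and 2 of the 4 factors were higher in NOD islets than in the pool, against 1.9% of all genes called higher and 2.78% in either direction. Ptf1a, the core of the PTF1 complex, ranged from 0.93 through 1.74 to 2.32, with a mean of 1.72 ± 0.48 (n = 6), 3.29-fold higher (limma adjusted p = 0.000405). Nr5a2 ranged from 0.61 through 1.03 to 1.67, with a mean of 1.08 ± 0.35 (n = 6), 2.11-fold higher (limma adjusted p = 0.000851). All 6 mice lay above the pool for both genes, and replicate 3 was the highest for each of the 4 members.

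Rbpjl ranged from 0.44 through 0.77 to 1.66, with a mean of 0.90 ± 0.49 (n = 6, limma adjusted p = 0.074). It lay above the pool in 6 of 6 mice and was not called. Bhlha15 ranged from -0.69 through 0.66 to 1.38, with a mean of 0.54 ± 0.74 (n = 6, limma adjusted p = 0.196), and replicate 4 was the single mouse below the pool. Nr5a2 is near the 2-fold limit: it averaged 0.96 without replicate 3 and 0.77 under median centring, and was not called in either. Relative to the median of all genes under median centring, the 4 week values were 1.51 for Ptf1a, 0.91 for Nr5a2, 0.76 for Rbpjl and 0.37 for Bhlha15.

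At 12 weeks none of the 4 factors was called by limma, against 3.51% of all genes, and none had an unadjusted p under 0.05. The means were 0.34 ± 0.50 for Ptf1a, -0.51 ± 0.86 for Rbpjl, 0.42 ± 0.53 for Bhlha15 and -0.21 ± 0.30 for Nr5a2 (n = 6 each). Rbpjl ran from -1.97 in replicate 2 to 0.45 in replicate 6, with a median of -0.31. Nr5a2 varied least, from -0.62 to 0.01, with a median of -0.05. Replicate 2 was the lowest mouse for all 4 members. Median centring moved these means most: Ptf1a to 1.25 and Bhlha15 to 1.54, both then called, and Rbpjl to 0.64 and Nr5a2 to 0.61, both turned in direction and not called. Relative to the median of all genes they were 0.75, 1.03, 0.14 and 0.11.

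At 20 weeks none was called by limma either, against 5.09% of all genes, none had an unadjusted p under 0.05, and the mice of one age differed by more than at any other. Rbpjl ranged from -3.05 through -0.66 to 1.97, with a mean of -0.42 ± 1.75 (n = 6). Ptf1a ranged from -2.35 through -0.43 to 1.66, with a mean of -0.13 ± 1.51. Bhlha15 ranged from -1.54 through 0.01 to 2.10, with a mean of 0.26 ± 1.39. Nr5a2 ranged from -1.62 through -0.25 to 1.30, with a mean of -0.11 ± 1.04.

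The same mice stood at both ends for all 4 members at 20 weeks: replicate 2 was the lowest and replicates 5 and 6 the highest. The digestive enzymes gave the same ends, with a mean over 22 enzymes of -2.46 in replicate 2, 2.09 in replicate 5 and 1.47 in replicate 6. Replicates 5 and 6 were also the arrays with the fewest NOD probes above background. Without those 2 arrays the 20 week mean of Rbpjl was -1.38, called lower (limma adjusted p = 0.00475), and that of Bhlha15 turned to -0.55. The mice lay on a pair of slides, and replicates 1 and 2, on one slide, averaged -1.87 for Rbpjl, while replicates 3 to 6, on the other, averaged 0.31. Under median centring the 20 week means were -1.05 for Rbpjl, then called lower (adjusted p = 0.0242), -0.64 for Ptf1a, -0.55 for Nr5a2 and -0.36 for Bhlha15, which turned in direction. Relative to the median of all genes they were -0.84, -0.43, -0.34 and -0.15.

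Between 10 days and 4 weeks the ratio rose for all 4 members, where 5.15% of all genes rose and 9% changed in either direction. The rise was 2.65 ± 0.59 (log2, standard error of the limma model) for Rbpjl (adjusted p = 0.00072), a 6.29-fold change, and 2.34 ± 0.34 for Nr5a2 (adjusted p = 1.03e-05), 5.05-fold. It was 2.27 ± 0.51 for Ptf1a (adjusted p = 0.000767), 4.83-fold, and 1.77 ± 0.49 for Bhlha15 (adjusted p = 0.00435), 3.42-fold. The 6 mice of 4 weeks all lay above the 6 of 10 days for Ptf1a, Rbpjl and Nr5a2, as they did for 12.4% of all genes, and 26.7% of all genes had no overlap in either direction. For Bhlha15, 1 mouse of 4 weeks, at -0.69, lay below the 2 highest mice of 10 days, at -0.49 and -0.35.

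One slide held 2 mice of each of these ages, and its means ran the same way: -1.60 at 10 days and 1.11 at 4 weeks for Rbpjl, -1.17 and 1.14 for Nr5a2, -0.53 and 1.83 for Ptf1a, and -1.04 and 0.81 for Bhlha15. With the slide as a fixed block the Bhlha15 rise was 1.85 and no longer called (adjusted p = 0.0669), and under median centring it was 0.69 (adjusted p = 0.173). The other 3 rises stayed called under both.

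From 4 to 12 weeks the ratio fell for 2 members, where 3.07% of all genes fell and 6.05% changed in either direction. Nr5a2 fell by 1.29 ± 0.34 (adjusted p = 0.00522) and Ptf1a by 1.38 ± 0.51 (adjusted p = 0.0334). Rbpjl differed by -1.41 ± 0.59, which missed the threshold (adjusted p = 0.0568), and Bhlha15 by -0.12 ± 0.49 with a 95% interval of -1.13 to 0.89. The Ptf1a fall was a narrow call: leaving out any of 7 of the 24 arrays (4 week replicates 1, 3 and 4, and 12 week replicates 1, 2, 4 and 5) ended it, with values from -1.53 to -1.25 over all 24. Without any 1 of 5 arrays (10 day replicate 1, 12 week replicate 6 and 20 week replicates 2, 5 and 6) Rbpjl was called instead. No fall was called under median centring, where Nr5a2 differed by -0.15 and Ptf1a by -0.11.

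From 12 to 20 weeks no member was called by limma, against 2.41% of all genes, and none had an unadjusted p under 0.05. Under median centring all 4 were called lower in this contrast, by log2 differences of -1.89 for Ptf1a, -1.69 for Rbpjl, -1.90 for Bhlha15 and -1.17 for Nr5a2, where the median of all genes was -0.78. Between 10 days and 20 weeks the ratio rose for Bhlha15, by 1.49 ± 0.49 (adjusted p = 0.013), and for Nr5a2, by 1.15 ± 0.34 (adjusted p = 0.00699), where 7.74% of all genes rose and 12.5% changed in either direction. Rbpjl differed by 1.33 ± 0.59 (adjusted p = 0.0592) and Ptf1a by 0.43 ± 0.51 (adjusted p = 0.501). Both rises ended without the 2 dim 20 week arrays, at 0.68 and 0.57, and under median centring, at 0.11 and -0.03. Over the 4 ages together the moderated F test passed for all 4 members, from adjusted p = 4.77e-05 for Nr5a2 to 0.00758 for Bhlha15, as it did for 76% of all genes.

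A ratio can move with either channel, so the normalized log2 intensity of each channel was also read, by age. In the NOD channel Rbpjl averaged 12.75 ± 0.71, 13.04 ± 0.42, 12.76 ± 0.84 and 11.93 ± 1.82 from the youngest to the oldest age (n = 6 each). In the pool channel it averaged 14.51, 12.14, 13.27 and 12.34. The NOD mice of the 4 ages overlapped, while the pool of 10 days lay above that of every other age, at 14.41 or more on each array against at most 13.43.

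Nr5a2 had the same order, with NOD means of 7.97 ± 0.53, 8.53 ± 0.29, 8.17 ± 0.45 and 7.82 ± 1.04 at the 4 ages in turn, and pool means of 9.23, 7.45, 8.38 and 7.93. For Ptf1a the means differed between ages in both channels, with no change called in the NOD channel. Its NOD means were 8.64 ± 0.85, 9.84 ± 0.50, 8.87 ± 0.60 and 8.20 ± 1.54, and its pool means 9.19, 8.12, 8.52 and 8.33. Bhlha15 had NOD means of 10.53 ± 0.66, 11.82 ± 0.68, 11.70 ± 0.54 and 11.33 ± 1.44 and pool means of 11.76, 11.27, 11.28 and 11.07. For each member the pool was at its highest at 10 days.

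Between ages none of the 4 members was called in the NOD channel, in any of 4 contrasts, against 3.24%, 5.21%, 0.337% and 4.96% of all genes. The difference nearest the threshold was the 4 week against 10 day level of Bhlha15, at 1.29 ± 0.49 (limma adjusted p = 0.0551). For Ptf1a it was 1.20 ± 0.52 (adjusted p = 0.0928), for Nr5a2 0.55 ± 0.35 with a 95% interval of -0.18 to 1.28, and for Rbpjl 0.28 ± 0.59 with an interval of -0.94 to 1.51. Bhlha15 and Ptf1a had an unadjusted p under 0.05 in that contrast, at 0.0155 and 0.0318. Levels are not compared between genes, since their probes differ. The pool gave 1 sample per age, so its own change could not be tested.

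**Figure D2:**
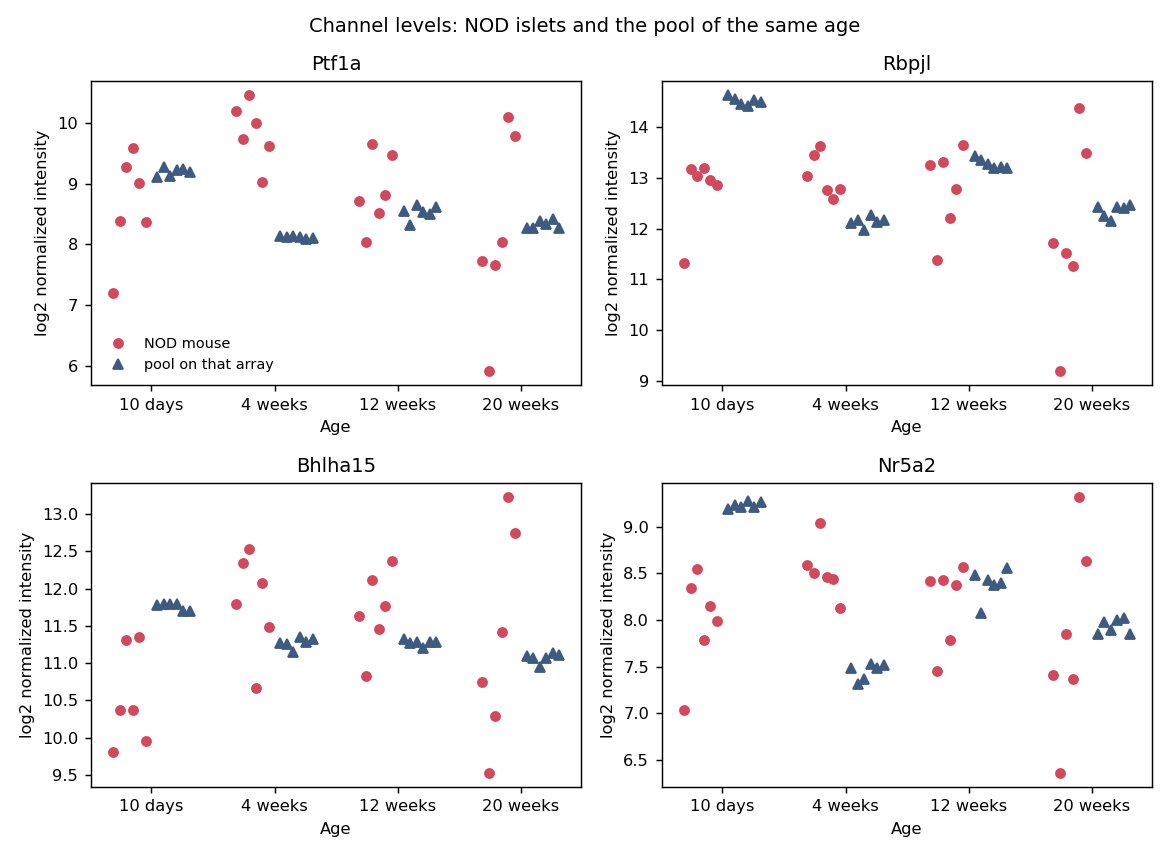
Normalized log2 intensity of each member in the NOD channel (circles, 6 mice per age) and in the pool channel of the same arrays (triangles, 1 pool per age read 6 times). For Rbpjl the pool runs from 14.51 at 10 days to 12.14 at 4 weeks while the NOD means run from 12.75 to 13.04; the vertical scales differ between genes.

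The dim Bhlha15 probe showed little of this. Its mean ratio was -0.11, 0.18, -0.10 and -0.02 from the youngest to the oldest age, none called when every probe was fitted on its own. Its pool level lay between 6.61 and 6.80 at the 4 ages, against 11.07 to 11.76 for the bright probe. Both probes had the same direction at 10 days and 4 weeks, and opposite directions at 12 and 20 weeks, where the bright one was at 0.42 and 0.26. The dim probe differed by 0.28 ± 0.11 between 10 days and 4 weeks (limma adjusted p = 0.0318), under 2-fold. From 4 to 12 weeks it differed by -0.27 ± 0.11 (limma adjusted p = 0.0478), also under 2-fold, against -0.12 ± 0.49 for the bright probe.

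The factors were then set against the genes they drive. Of the digestive enzymes, 22 of 29 named genes were tested. In the 10 day mice 2 of them were higher than the pool, 1 was lower and 19 missed the limits. Amy2a5, a pancreatic amylase, was higher by 1.49 ± 0.82 (adjusted p = 0.00328) and Pnlip, pancreatic lipase, by 1.44 ± 0.95 (adjusted p = 0.00428). Prss3, a trypsinogen, was lower, at -1.18 ± 0.69 (adjusted p = 0.0207). The trypsinogens and amylases have near-identical copies that a probe may not tell apart.

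At 4 weeks 20 of the 22 enzymes were higher than the pool, with a median of 1.37 against -0.01 over all genes. Between 10 days and 4 weeks the ratio rose for 16 of the 22 enzymes, as it did for all 4 members, with a median of 1.59. From 4 to 12 weeks it fell for 16, as it did for Ptf1a and Nr5a2, with a median of -1.54. Under median centring 2 enzymes rose in the first contrast and 0 fell in the second. In the NOD channel alone, 4 of the 22 were called higher at 4 weeks than at 10 days. In the ratio at 4 weeks Pnliprp1 and Pnliprp2, the lipase-related proteins, were higher by 2.05 ± 0.24 (adjusted p = 0.000134) and 1.98 ± 0.25 (adjusted p = 0.00047). Amy2a5 was higher by 1.82 ± 0.19 and Ctrc, chymotrypsin C, by 1.77 ± 0.31. No enzyme was called at 12 or 20 weeks, and the medians were -0.13 and -0.03. Of the granule and secretory proteins, 10 of 11 listed symbols were tested. With loess the ratio rose for 8 of them from 10 days to 4 weeks and fell for 6 from 4 to 12 weeks. Under median centring 0 were called in either contrast. At 4 weeks 9 were higher than the pool. Among them were the granule membrane protein Gp2 (1.72 ± 0.35) and the disulfide isomerase family member Erp27 (1.59 ± 0.33). Spink1, the trypsin inhibitor, was called lower at 12 weeks, at -1.06 ± 0.83 (adjusted p = 0.0488), and turned to 0.14 under median centring. The direction of the enzymes at 10 days and 12 weeks, and their distance from the pool at 20 weeks, depended on the scaling. Their mean at 10 days, 12 weeks and 20 weeks was -0.05, -0.04 and -0.02 with loess and 0.64, 1.16 and -0.71 under median centring, against 1.42 and 1.25 at 4 weeks. Under median centring 5 enzymes were called higher than the pool at 10 days, 18 at 4 weeks and 14 at 12 weeks, and 4 were called lower at 20 weeks. Prss3 at 10 days was then at -0.52 and not called. Of the granule and secretory proteins 6 were called higher at 4 weeks and 6 at 12 weeks under that scaling.

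Within each mouse the member's ratio was compared with the mean over the 22 enzymes. At 10 days the difference (member minus enzymes) was -1.71 ± 0.28 for Rbpjl, -1.21 ± 0.61 for Nr5a2 and -1.18 ± 0.93 for Bhlha15, each below 0 in 6 of 6 mice, and -0.51 ± 0.61 for Ptf1a, below 0 in 4 of 6. Rbpjl was below the enzymes in 6 of 6 mice at each later age too, with differences of -0.52 ± 0.29, -0.47 ± 0.16 and -0.40 ± 0.22 at 4, 12 and 20 weeks. Its difference at 10 days, -1.99 to -1.24, did not overlap with that of any later age, where the lowest mouse was at -0.79. On this scale 0.116% of all genes had their 10 day mice below all later mice. That share is no chance rate for a gene that follows the enzymes. The enzyme mean ran from -1.50 to 0.72 at 10 days and from -2.46 to 2.09 at 20 weeks. Subtracting it adds that spread to genes that do not follow the enzymes. The change of this difference with age was not tested. A fixed dye effect of the probes would enter the difference at every age and cannot be told apart from it at a single age.

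Bhlha15 lay below the enzymes in 6 of 6 mice at 4 weeks (-0.88 ± 0.66) and above them in 6 of 6 at 12 weeks (0.46 ± 0.36). Nr5a2 lay below them in 6 of 6 at 4 weeks (-0.35 ± 0.24) and on both sides later. Ptf1a was above them in 5 of 6 mice at 4 weeks (0.30 ± 0.29) and at 12 weeks (0.39 ± 0.40). At 4 weeks the enzyme mean itself ran from 1.04 to 1.74 over the mice, against a median of -0.01 over all genes. A gene with ratios near that median would also lie below the enzymes in 6 of 6 mice, as Rbpjl, Bhlha15 and Nr5a2 did. A two-sided exact sign-flip permutation test over 6 mice cannot give less than 0.0313, and the 9 differences with all mice on one side reached it. Adjusted over the 16 tests those p-values were 0.0556, so none passed 0.05. The share of all genes wholly on one side of the enzyme mean was not counted, so the 9 differences have no background beside them.

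**Figure D3:**
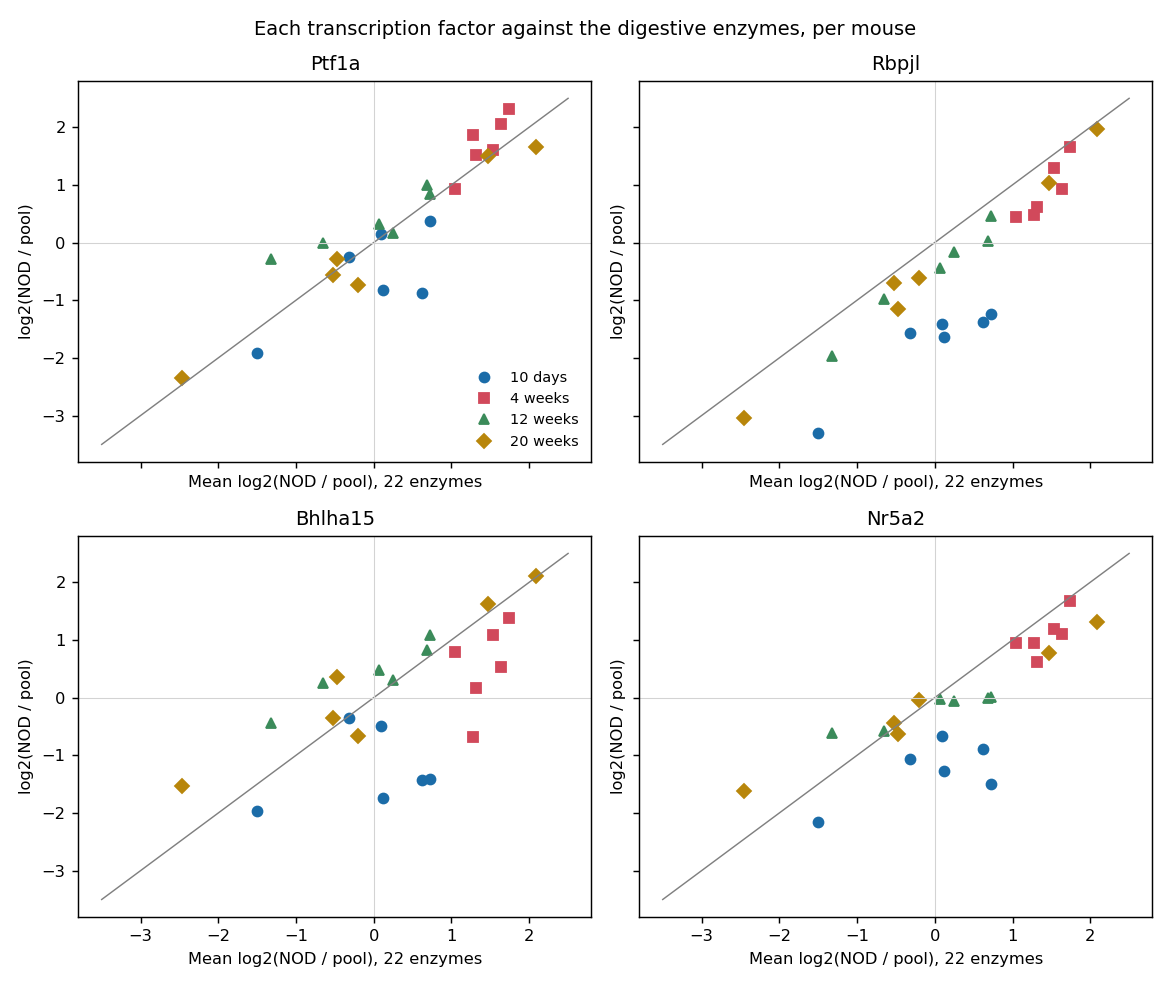
Log2(NOD/pool) of each member (vertical) against the mean log2(NOD/pool) of the 22 enzymes (horizontal) in the same mouse, 24 mice coloured by age; the grey line marks equality. All Rbpjl points lie below the line, and the 10 day points of Rbpjl, Nr5a2 and Bhlha15 lie furthest below it on average, with differences of -1.71, -1.21 and -1.18.

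Over the 24 arrays the ratio of Rbpjl correlated with the enzymes at a median r of 0.91, that of Ptf1a at 0.89, Nr5a2 at 0.82 and Bhlha15 at 0.65. With the mean of each age taken out, these medians were 0.96, 0.90, 0.88 and 0.76. The median r with all 18041 genes that had no missing ratio lay between -0.13 and -0.03. The arrays share the pool of their age and the loess scaling, and these values are descriptions. Among members r was 0.95 for Rbpjl and Nr5a2, 0.92 for Rbpjl and Ptf1a, 0.89 for Ptf1a and Nr5a2, 0.85 for Rbpjl and Bhlha15, 0.82 for Bhlha15 and Nr5a2, and lowest, at 0.76, for Ptf1a and Bhlha15.

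The genes with ratios most like those of Rbpjl over the 24 arrays were Gamt, the last enzyme of creatine synthesis (r = 0.986), Slc6a9, a glycine transporter (r = 0.985), the growth factor Bmp7 (r = 0.983), the glutathione transferase Gstp1 (r = 0.980) and Prss3 (r = 0.978). For Ptf1a they were the glutamine transporter Slc38a3 (r = 0.947), Slc6a9 (r = 0.947), the prostaglandin receptor Ptger3 (r = 0.944), the anchoring protein Akap1 (r = 0.941) and sarcosine dehydrogenase Sardh (r = 0.941). For Nr5a2 they were Gdpd5 (r = 0.965), Proser2 (r = 0.965), Shroom1 (r = 0.963), the ETS factor Spdef (r = 0.956) and Igsf23 (r = 0.955). For Bhlha15 they were Sel1l, a part of the machinery that clears misfolded proteins from the endoplasmic reticulum (r = 0.954), Cracr2b (r = 0.952), Extl3 (r = 0.942), Dexi (r = 0.940) and Pstk (r = 0.936). Slc6a9 was in the lists of both Rbpjl and Ptf1a, and one of the 22 enzymes, Prss3, was in any list.

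These genes were chosen for their likeness on the same arrays, so their values are given with no test. Slc6a9 was at -1.22 ± 0.70 at 10 days and 1.38 ± 0.36 at 4 weeks, Spdef at -1.02 ± 0.43 and 1.21 ± 0.35, and Ptger3 at -1.38 ± 0.69 and 1.66 ± 0.34. Sel1l was at -0.83 ± 0.68 at 10 days, 1.52 ± 0.98 at 4 weeks and 1.28 ± 0.64 at 12 weeks.

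With loess, the partners of the complex passed the 2-fold limit at no single age. Of Rbpj, the widely expressed paralog of Rbpjl, and the E proteins Tcf3, Tcf4 and Tcf12, none was called at any age. Rbpj went from -0.69 ± 0.16 in the youngest mice (adjusted p = 5.13e-09) through -0.13 ± 0.14 and -0.03 ± 0.06 to 0.43 ± 0.20 in the oldest (adjusted p = 5.12e-06), each under 2-fold. Tcf12 was at -0.56 ± 0.13, -0.19 ± 0.13, 0.02 ± 0.14 and 0.55 ± 0.20 at the same ages. Tcf3 ran from -0.37 ± 0.19 at 10 days to 0.72 ± 0.28 at 12 weeks, and Tcf4 from -0.34 ± 0.20 at 10 days to 0.31 ± 0.36 at 20 weeks. Between 10 days and 20 weeks the ratio of Rbpj rose by 1.13 ± 0.09 and that of Tcf12 by 1.11 ± 0.09 with loess. Under median centring the differences were 0.44 and -0.15, neither called, and the partners' median in this contrast went from 0.88 to -0.38. In the NOD channel no partner was called between ages, and their median from 10 days to 20 weeks was 0.09. The median ratio of the partners at 10 days was -0.47 with loess and 0.30 under median centring. At 12 weeks it was 0.16 and 1.10, where 2 partners were then called higher.

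Of 9 other regulators of acinar genes, none was called at any single age. Between 10 days and 4 weeks the ratio of Gata6, a zinc-finger factor of acinar differentiation, rose by 1.31 ± 0.15 (adjusted p = 5.74e-07). That of Foxa2, a forkhead factor of the endoderm, fell by 1.02 ± 0.22 (adjusted p = 0.000595). Under median centring these differences were 0.18, not called, and -2.09, still called. In the NOD channel none of the 9 was called between ages. Of 5 secretory and junction genes tied to Bhlha15, none was called at 10 days and 2 were higher than the pool at 4 weeks. These were Atp2c2, a calcium and manganese pump, by 1.27 ± 0.32 (adjusted p = 0.00358), and the granule GTPase Rab26 by 1.06 ± 0.35 (adjusted p = 0.0056). Under median centring they were at 0.92 and 0.71, and neither was called.

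Inhibitors of basic helix-loop-helix factors and Notch genes, 13 in all, had 5 members lower at 10 days and none higher. Heyl, a Notch target, was at -1.63 ± 0.49 (adjusted p = 2.49e-07), Id1, which blocks E proteins, at -1.55 ± 0.57 (adjusted p = 6.72e-07), and the receptors Notch2 and Notch1 at -1.25 ± 0.35 and -1.15 ± 0.10. None was called at 4 or 12 weeks. At 20 weeks Id2 was higher than the pool by 1.97 ± 0.38 (adjusted p = 5.46e-08) and Notch2 by 1.03 ± 0.45. The median of this list at 10 days was -0.74 with loess and -0.03 under median centring, where no member was called at that age. Heyl was then at -0.89, Id1 at -0.78, Notch1 at -0.58 and Notch2 at -0.52; at 12 weeks 5 of the 13 were called higher, and at 20 weeks Id2 (1.39) stayed called and Notch2 (0.72) did not.

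Among 10 progenitor and duct factors, Myc was lower at 10 days (-1.20 ± 0.52, adjusted p = 2.24e-06) and Nkx6-1, which beta cells also use, was higher (1.12 ± 0.83, adjusted p = 0.00301). At 4 weeks Sox9, a duct and progenitor factor, was higher (1.27 ± 0.53, adjusted p = 4.33e-05) and Nkx6-1 was lower (-1.35 ± 0.18). At 20 weeks Nkx6-1 (-1.68 ± 1.21) and Pdx1 (-1.03 ± 0.33), both of beta cells as well, were lower. Under median centring Myc at 10 days (-0.43) and Sox9 at 4 weeks (0.95) were not called, while the named calls of Nkx6-1 and Pdx1 held.

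Markers of other cells were also read, and they differed from the pool in both directions. At 10 days 6 of 9 beta cell markers and 5 of 7 markers of alpha, delta and PP cells were higher. All 6 stellate cell and fibroblast markers, 3 of 6 B cell markers and 1 of 6 macrophage markers were lower at that age. None of 9 duct markers or 8 T cell markers was called. The mean ratio over the beta cell markers ran from 0.45 to 1.83 over the 10 day mice, and that over the stellate markers from -2.93 to -0.92. At 4 weeks 3 beta cell markers were lower, 1 T cell marker was higher, and no duct, stellate, B cell, macrophage or alpha, delta and PP marker was called. The 4 week means ran from -1.29 to -0.58 for beta cells and from -0.45 to 1.29 for stellate cells. At 12 and 20 weeks 6 of 8 T cell and 5 of 6 B cell markers were higher, and 4 and 9 of 9 beta cell markers were lower. At 12 weeks 3 of 9 duct markers were lower as well. Of the 6 stellate markers 2 were higher at 12 weeks and 4 at 20 weeks, against 6 and 0 under median centring. The other counts above are with loess. Under median centring no beta cell or duct marker was called at 12 weeks, and the medians there turned from -0.81 to 0.18 for beta cells and from -0.64 to 0.39 for duct cells. At 10 days 7 beta cell and 4 duct markers were then higher, 4 of 6 stellate markers lower and no B cell marker called, and at 20 weeks all 9 beta cell markers were lower, and 6 T cell and 3 B cell markers higher. In the NOD channel the mean log2 level per mouse ran from 10.76 to 12.02 for the beta cell markers and from 9.86 to 11.81 for the stellate markers at 10 days, and from 11.47 to 12.11 and 9.26 to 10.95 at 4 weeks. The part of these markers in the members' ratios was not tested, and in islet RNA fewer acinar cells and less of a transcript per acinar cell cannot be told apart.

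**Figure D4:**
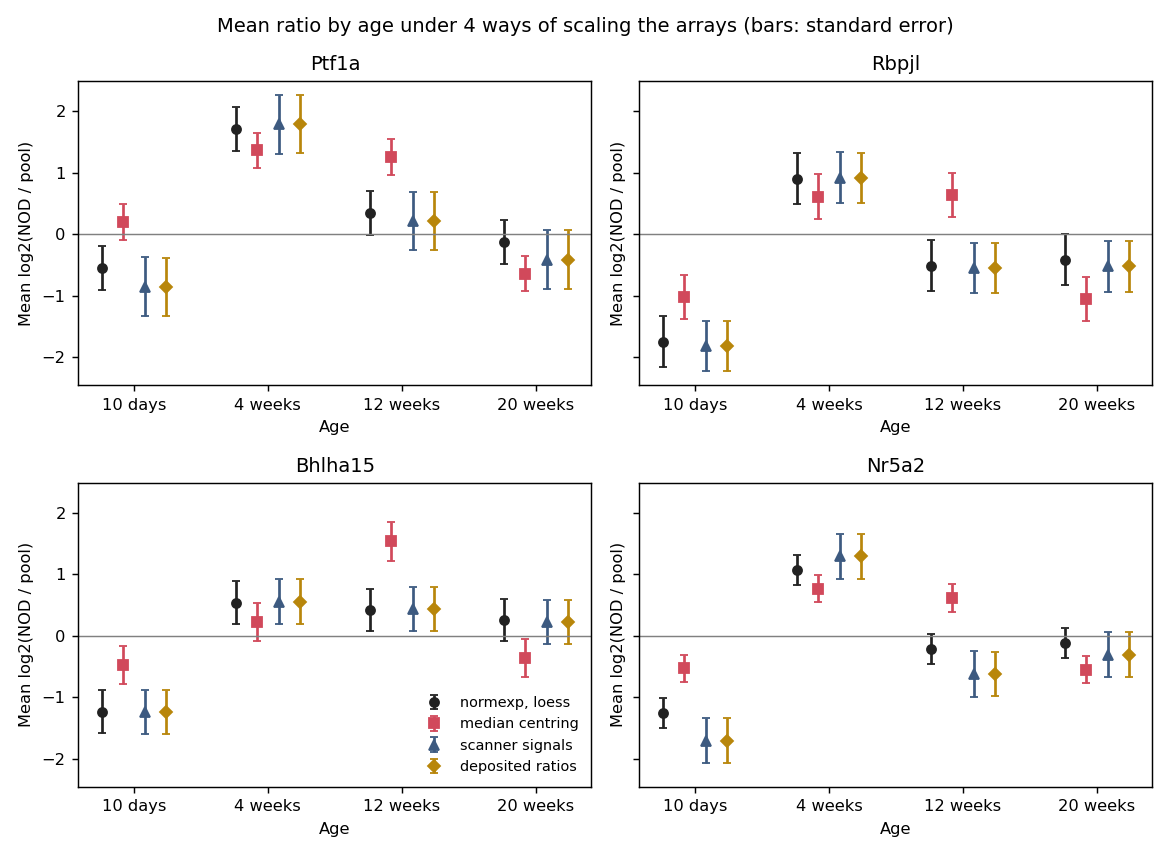
Mean log2(NOD/pool) of each member at each age with its standard error, computed 4 ways: normexp with loess, median centring, the scanner software's processed signals, and the deposited ratios. At 4 weeks all 4 ways put every member above 0; at 12 weeks Rbpjl and Nr5a2 are below 0 with loess (-0.51 and -0.21) and above it under median centring (0.64 and 0.61).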

How the data were processed

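Per the file headers, each deposited file is the output of Feature Extraction, version 10.7.3.1, with spot intensity and background for both channels of 45018 spots (1639 controls), and a log10 ratio after the scanner software's dye normalization. The authors' deposited table holds log2 ratios of 22088 noncontrol probes; over 99.1% of its values equalled the scanner ratio within 1e-05, and its column medians ran from -0.181 to 0.0860, so it was not centred. Here intensities were corrected by normexp (offset 50), normalized within arrays by loess with limma 3.58.1 in R 4.3.3, with control spots at weight 0 and flagged spots missing, and averaged per probe. Of 41174 probes, 25931 well above background in a channel on at least 6 arrays were kept, and the brightest stood for each of 18085 genes. A linear model with 1 mean for each age covered the 24 arrays; channel levels were scaled by Aquantile. Probes were named through RefSeq (GRCm38.p6); promoter sequences are RefSeq's.

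Named were all members and PTF1 partners, up to 4 called genes per list and age furthest from 0, and the 5 most similar symbols per member, passing over clone names. Members and lists were chosen with earlier results of these data known. Of the listed symbols, Amy2a1, Amy2a2, Amy2b, Cela3a, Prss1, Try4, Try10, Spink3 and Iapp matched no symbol among the genes tested. The fit was tested on simulated data. Alternatives were another scaling, offset, filter, source of values, block and sets of arrays. Same-numbered mice of different ages correlated between -0.42 and 0.63 in their deviations from the age means, so the numbers were not taken as pairs.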

Additional observations from a re-analysis of the deposited data

Results flagged for a closer look

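One mouse stood apart from its group: at 10 days the Rbpjl ratio of replicate 1 was -3.30, while the other 5 mice lay between -1.63 and -1.23. The gap was wide enough for a test of single outliers, which flags about 1 in 20 groups by chance. That test was run on the 5 member probes and the enzyme mean at each of the 4 ages, and flagged no other group. The same mouse was the lowest for all 4 members and for the mean over the enzymes (-1.50).

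In 8 cases the NOD to pool ratio of a member differed between ages in the limma model. Between 10 days and 4 weeks the differences were 2.27 for Ptf1a, 2.65 for Rbpjl, 1.77 for Bhlha15 and 2.34 for Nr5a2. Between 4 and 12 weeks they were -1.38 for Ptf1a and -1.29 for Nr5a2. Between 10 days and 20 weeks they were 1.49 for Bhlha15 and 1.15 for Nr5a2. Each includes any difference between the pools of both ages.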

How the results depend on the processing

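Direction and call of a member's ratio held in most alternatives, and median centring in place of loess changed most of them. Every call and direction of a ratio was the same with no filter on dim probes, with every probe fitted, and with the replicate block; the block raised the Bhlha15 level difference of 4 weeks against 10 days, 1.29, just past the threshold (adjusted p = 0.0489) and changed no other call of a member, and the count of calls at 10 days went from 719 to 717. Same-numbered mice did not deviate together, so the numbers are no design pairs, and at most 2 of 6 mice correlated best with their own number at another age.

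Under median centring the direction turned for Ptf1a at 10 days (0.20) and from 10 days to 20 weeks (-0.84), for Rbpjl at 12 weeks (0.64), from 4 to 12 weeks (0.024), from 12 to 20 weeks (-1.69) and from 10 days to 20 weeks (-0.032), for Bhlha15 at 20 weeks (-0.36) and from 4 to 12 weeks (1.31), and for Nr5a2 at 12 weeks (0.61), from 12 to 20 weeks (-1.17) and from 10 days to 20 weeks (-0.025). Calls were lost for Bhlha15 at 10 days (-0.47), from 10 days to 4 weeks (0.69) and to 20 weeks (0.11), for Nr5a2 at 10 days (-0.53), 4 weeks (0.77) and from 4 to 12 weeks (-0.15), and for Ptf1a from 4 to 12 weeks (-0.11). Calls were gained for Ptf1a at 12 weeks (1.25) and from 12 to 20 weeks (-1.89), for Rbpjl at 20 weeks (-1.05), and for Bhlha15 at 12 weeks (1.54) and from 12 to 20 weeks (-1.90). Of the results that turned, Rbpjl and Nr5a2 from 12 to 20 weeks and Bhlha15 from 4 to 12 weeks were also called. The difference from the enzymes at 20 weeks turned for Ptf1a (0.072) and Nr5a2 (0.16). The cause was not tested.

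The change from 4 to 12 weeks was lost for Ptf1a and gained for Rbpjl with the scanner's signals (-1.57 and -1.47) and the deposited table (-1.57 and -1.47), and with an offset of 0 it was lost for Ptf1a (-1.50), while Rbpjl turned from 12 to 20 weeks (-0.038). With the slide as a random block Rbpjl gained the changes from 4 to 12 weeks (-1.54) and from 10 days to 20 weeks (1.46), and Bhlha15 turned from 12 to 20 weeks (0.035). With it as a fixed block Bhlha15 lost the rise to 4 weeks (1.85), and Rbpjl (-1.88) and Nr5a2 (-1.02) turned from 12 to 20 weeks. Without the 2 dimmest 20 week arrays, also the highest for the members, the change from 12 to 20 weeks was called for Ptf1a (-1.32) and turned for Rbpjl (-0.87) and Nr5a2 (-0.47). The change from 10 days to 20 weeks turned for Ptf1a (-0.43) and was lost for Bhlha15 (0.68) and Nr5a2 (0.57). Rbpjl was called at 20 weeks (-1.38) and from 4 to 12 weeks (-1.41), and Bhlha15 turned at 20 weeks (-0.55).

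Leaving out 1 array at a time changed these results, given by their ranges. At 20 weeks, Ptf1a (-0.49 to 0.32), Rbpjl (-0.90 to 0.11) and Nr5a2 (-0.39 to 0.19) turned without replicate 2, and Bhlha15 (-0.11 to 0.62) without replicate 5 or 6. From 4 to 12 weeks Ptf1a (-1.53 to -1.25) was lost in 7 of 24 cases, Rbpjl (-1.61 to -1.12) gained in 5, and Bhlha15 (-0.37 to 0.048) turned in 2. From 12 to 20 weeks Rbpjl (-0.38 to 0.62) turned in 3, Bhlha15 (-0.53 to 0.20) in 2 and Nr5a2 (-0.18 to 0.40) in 2. From 10 days to 20 weeks Rbpjl (0.86 to 1.86) was called without 20 week replicate 2 or 4, and Nr5a2 (0.87 to 1.45) was lost without 10 day replicate 1 or 20 week replicate 5 or 6. At 4 weeks Nr5a2 (0.96 to 1.17) was lost without replicate 3.

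Counts of called genes depended on the scaling; each is given with loess, median centring, scanner signals, an offset of 0 and the deposited table, and the share of higher calls for the first 4. At 10 days they were 719, 2755, 2906, 1695 and 2437 (40.6%, 98.1%, 55.4% and 46.6%), at 4 weeks 503, 780, 2123, 1008 and 1550 (68.4%, 17.3%, 57.2% and 69.8%), at 12 weeks 635, 4289, 3252, 1502 and 2648 (59.5%, 99.3%, 64.3% and 62.3%), and at 20 weeks 921, 1825, 3003, 1792 and 2344 (75.9%, 24.8%, 49.7% and 68.1%). From 10 days to 4 weeks they were 1628, 5905, 4551, 3077 and 3761 (57.2%, 1.88%, 45.9% and 53.5%), from 4 to 12 weeks 1094, 7102, 4357, 2446 and 3539 (49.2%, 99.6%, 59.8% and 55.1%), from 12 to 20 weeks 436, 7665, 2550, 1078 and 1990 (83.3%, 0.3%, 34.6% and 64.1%; 194 with the slide as a fixed block), and from 10 days to 20 weeks 2267, 7069, 5698, 4185 and 4684 (61.7%, 6.3%, 44.2% and 55.1%). In the NOD channel the scanner's red signal gave 2705, 2653, 812 and 2653 calls in the same contrasts, against 586, 942, 61 and 897, and called no member.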
